A study of Mus musculus with 12 samples.

Results

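The BCL2 family sets whether a cell enters apoptosis through its mitochondria, and the 10 family genes Bcl2, Bcl2l1, Mcl1, Bak1, Bok, Bcl2l11, Bid, Bad, Bmf and Bik were followed here over 4 days in mouse embryonic stem cells made to delete Hdac1 and Hdac2. They were chosen by symbol as a list of survival and death members, with every probe that carries 1 of these symbols, and are 10 of the 19057 genes with a probe. They have 26 probes, of which 14 were detected often enough to test and 12 were not. Testable probes covered 9 of the 10 genes, with Bcl2 the exception. By role the list holds 3 survival genes (2 tested), 2 pro-death effectors (2 tested) and 5 BH3-only genes (5 tested).

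The cells were E14 embryonic stem cells, an established mouse line, with loxP sites in both alleles of Hdac1 and Hdac2 (Hdac1 lox/lox, Hdac2 lox/lox) and with CreER, a Cre recombinase that works only when bound by 4-hydroxytamoxifen (OHT). They were kept without feeder cells in serum and LIF, and 16 hours of OHT was used to induce the deletion. RNA from days 0, 1, 2 and 3 was hybridised to 12 Illumina bead arrays, 3 for each day. All 4 groups share the floxed alleles and CreER. The day 0 samples are also titled with OHT, although the series design describes them as wild type, so their exposure is unclear. The labels name neither OHT-treated cells without loxP sites nor cells kept for the same days without OHT, so effects of the deletion, of OHT, of Cre and of time in culture cannot be told apart. The labels give no number of independent clones or cultures, and the p-values therefore measure only the spread among these arrays, which may be technical.

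Between 14509 and 16770 of the 45281 probes were detected on each array at a detection p under 0.01. Values below are log2 intensities after background correction and quantile normalization, and differences are on that log2 scale with the standard error of limma. A gene was called where its Benjamini-Hochberg adjusted p, over the 9934 genes tested, was under 0.05. Among the targeted genes, no probe was named Hdac1, and Hdac2 had 2 probes whose position relative to the deleted part is not given in the sources used here. The Hdac2 probe ILMN_2640441 read 13.70, 13.40 and 13.65 at day 0 and 13.24, 13.12 and 13.60 at day 3, a difference of -0.26 ± 0.14 that was not called (adjusted p = 0.167 with limma over probes). The dimmer Hdac2 probe ILMN_1231785 was detected on 3 arrays at day 0 and on 0 at day 3, and was at least 1.30-fold lower at day 3 (limma adjusted p = 0.00384). That fold is a lower bound, because it is set against the lowest signal detected on each day 3 array. The deletion is thus taken from the labels.

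The 12 arrays fell into 2 sets of 6 by their background, seen as the lower quartile of the intensity before normalization, at 164.9 to 168.9 and at 179.5 to 185.8. The lower set holds 2, 2, 1 and 1 arrays of days 0, 1, 2 and 3, and the higher set holds 1, 1, 2 and 2, so both sets contain every day. The 10 embryonic stem cell markers were each detected on every day, and their summed linear level was 137438 to 141617 at day 0 and 113624 to 117152 at day 3, when 6 of the 10 had fallen. Of 10 fibroblast markers, 8 were detected on no array, among them the collagen genes Col1a2 and Col3a1, and Thy1, the only member tested, rose by 1.75 at day 3 (limma adjusted p = 5.88e-06). Of 10 trophectoderm markers 7 were tested, and by day 3, 4 had risen and 1 had fallen. The faller was Cdx2 (-0.52, limma adjusted p = 0.0133), and Eomes, Elf5 and Hand1 were detected on no array. The sum over all 10 was 10358 to 11625 on the day 0 arrays and 15410 to 16898 on those of day 3. Most of its rise was in Tfap2c and Krt8, which were bright at day 0 (mean log2 12.28 and 12.08) and at 13.05 and 12.48 at day 3. Of 10 extraembryonic endoderm markers 3 were tested, and by day 3, 2 had risen and 1 had fallen. All 10 summed to between 691.1 and 741.6 at day 0 and to between 2089 and 2488 at day 3, with 6 of them detected on no array. Most of that sum's rise was Amn, which codes for amnionless, a partner of the receptor cubilin, and which went from a mean log2 level of 6.67 to 10.67 (limma adjusted p = 8.97e-09), while Sox7 had fallen. Of 10 neural markers 4 were tested, and 2 had risen at day 3, Elavl3 by 1.56 and Map2 by 0.72 (limma adjusted p = 2.54e-06 and 0.000318). Elavl3 was already called at day 1 (0.80, limma adjusted p = 0.0473). Nes and Stmn2 were not called at day 3 (0.13 and -0.05), and 5 neural markers were detected on no array. The sum over the 9 with a probe was 5062 to 5993 at day 0 and 5457.5 to 6035 at day 3. The part of these shifts in the values below was not tested.

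The proteins of the family share short BCL2 homology regions and act at the outer membrane of the mitochondrion. Survival members such as BCL2, BCL-XL (from Bcl2l1) and MCL1 hold the effectors in check, effectors such as BAK1 and BAX open pores that release cytochrome c, and BH3-only members either block the survival proteins or switch on the effectors. Human embryonic stem cells are known to be primed for mitochondrial apoptosis. Much of the control lies in protein binding, phosphorylation and protein turnover, which arrays of RNA do not see. Viability was not measured in the data used here.

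To show what regulatory sequence the members share beyond the list that chose them, promoters from 250 bases before to 50 after each annotated start were taken from RefSeq (build GRCm38.p6). A promoter was matched for 9 of the 10 genes, in 15 windows, and Bik is named only. Each window was searched on both strands for GGGCGG, the core of the GC box bound by SP1 family factors, with no other motif searched. Of the 15 windows 8 hold it, where 35.7% of the 32851 windows in the table do (11714). Of the most upstream window of each gene 7 of 9 hold it, where 35.9% of 27026 such windows do (9708). The shares over all windows were not matched for GC content. A match is only a run of letters and says nothing of binding here. The 4 windows below are each the most upstream one of their gene. They belong to Bmf, called as higher at day 2 (chr2:118549637-118549936, minus strand), and to Bak1, which fell (chr17:27028578-27028877, minus strand). The others belong to Bcl2l11 and Bad, whose steps from day 2 to day 3 were called (chr2:128125788-128126087 and chr19:6941611-6941910, both plus strand). Capitals mark each match of GGGCGG or of its reverse complement CCGCCC, and each sequence is written 5′ to 3′ on the strand of the gene.
Bmf: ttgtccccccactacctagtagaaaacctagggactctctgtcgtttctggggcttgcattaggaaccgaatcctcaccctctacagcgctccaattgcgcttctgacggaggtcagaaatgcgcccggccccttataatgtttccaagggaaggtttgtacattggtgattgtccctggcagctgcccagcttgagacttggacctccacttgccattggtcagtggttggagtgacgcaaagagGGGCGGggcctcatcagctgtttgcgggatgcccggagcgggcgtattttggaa
Bcl2l11: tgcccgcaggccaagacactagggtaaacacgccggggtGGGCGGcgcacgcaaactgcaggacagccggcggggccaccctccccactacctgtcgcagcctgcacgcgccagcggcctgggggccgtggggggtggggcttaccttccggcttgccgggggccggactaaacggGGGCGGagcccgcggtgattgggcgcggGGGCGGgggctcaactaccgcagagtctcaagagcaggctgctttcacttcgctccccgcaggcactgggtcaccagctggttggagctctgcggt
Bad: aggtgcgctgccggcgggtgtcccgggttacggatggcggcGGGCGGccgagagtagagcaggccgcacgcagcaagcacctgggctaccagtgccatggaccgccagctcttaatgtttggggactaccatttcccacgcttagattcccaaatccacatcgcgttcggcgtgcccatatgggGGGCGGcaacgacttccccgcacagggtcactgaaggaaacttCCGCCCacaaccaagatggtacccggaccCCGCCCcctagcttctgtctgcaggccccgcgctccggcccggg
Bak1: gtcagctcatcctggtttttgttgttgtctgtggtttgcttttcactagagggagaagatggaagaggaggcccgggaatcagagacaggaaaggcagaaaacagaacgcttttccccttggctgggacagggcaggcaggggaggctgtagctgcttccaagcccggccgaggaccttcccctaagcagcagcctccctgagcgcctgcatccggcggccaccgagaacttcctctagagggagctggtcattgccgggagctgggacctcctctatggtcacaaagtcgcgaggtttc
These windows hold 1 match for Bmf, 3 for Bcl2l11, 4 for Bad and 0 for Bak1, and their GC contents are 55.3%, 71%, 65.7% and 58.3%. The further windows of Bmf and Bad hold 0 matches, and the further window of Bcl2l11 holds 3. The Bcl2 window holds 7 matches, although Bcl2 was detected in only 1 of 108 probe and array pairs, and the most upstream window of Bcl2l1 holds 0.

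Over the 3 days Bmf and Bik, both BH3-only genes, had the largest differences from day 0 among the 9 genes tested. At day 3 the fall of Bak1 (-1.05 ± 0.25) was about as large as the rise of Bmf (1.06 ± 0.14). Bmf rose 2.34-fold and Bik 2.24-fold by day 2 and both were still raised at day 3, Bcl2l11, Bad and Bid rose by day 3, the effector Bak1 fell by day 2, and Mcl1 was raised at day 2 and no longer called at day 3. At day 1 none of the 9 genes was called with limma, at day 2 there were 4 (3 up, 1 down) and at day 3 there were 6 (5 up, 1 down). Over all genes tested, 0.101% were called at day 1 in either direction, 14.8% rose and 7.6% fell at day 2, and 21.4% rose and 17.8% fell at day 3. At day 1, 2 of the 9 members, Bmf and Bik, had an unadjusted p under 0.05, as did 994 of the 9934 genes, and 0 members were called under any of the 32 alternatives. The median difference of the 9 members was 0.14 at day 2 and 0.35 at day 3, beside 0.03 and 0.01 over all genes. Since these are bulk samples, more or fewer cells of a kind and more or less RNA per cell cannot be told apart.

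**Figure D1:**
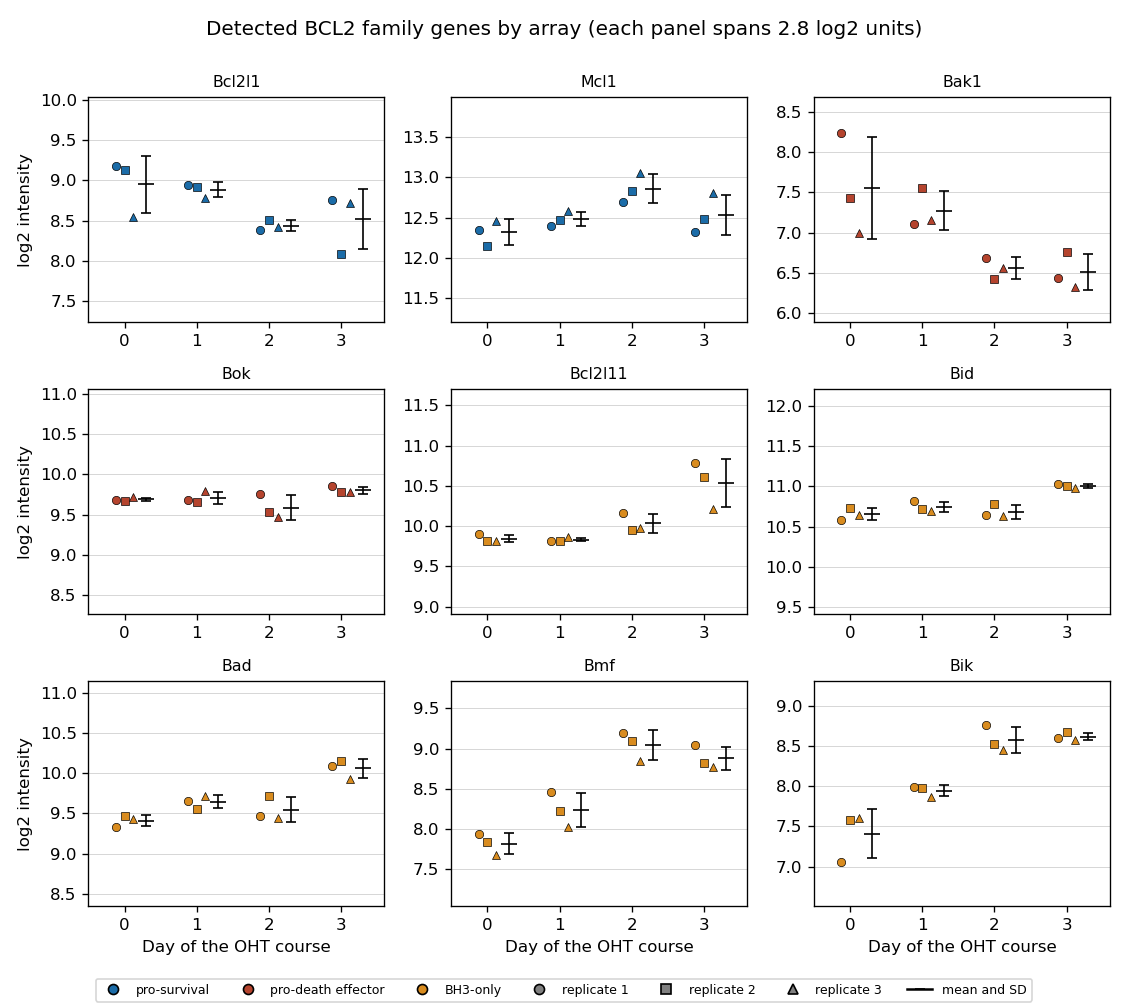
Log2 intensity (vertical axis) of the representative probe of each of the 9 tested BCL2 family genes on days 0 to 3 (horizontal axis), with 1 point per array, shaped by replicate number and coloured by role; the bar beside the points is the mean and SD of the 3 arrays. The day 2 and day 3 points of Bmf and Bik lie above all day 0 points, and those of Bak1 lie below them.

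Bik codes for a BH3-only protein that binds and blocks survival members. Its probe ILMN_2717011 read 7.06, 7.58 and 7.60 at day 0, 7.98, 7.98 and 7.87 at day 1, 8.76, 8.52 and 8.45 at day 2 and 8.60, 8.67 and 8.58 at day 3. No array of a later day overlapped with day 0, and days 2 and 3 overlapped with each other. Bik was 0.54 ± 0.15 higher at day 1 without being called (limma adjusted p = 0.242), had risen by 1.17 ± 0.15 at day 2 (2.24-fold, adjusted p = 0.000188) and by 1.21 ± 0.15 at day 3 (2.31-fold, adjusted p = 5.16e-05). The step from day 1 to day 2 was 0.63 ± 0.15 (limma adjusted p = 0.0178), a call that was lost when day 1 replicate 2 (adjusted p = 0.0549), day 1 replicate 3 (0.0626) or day 2 replicate 1 (0.0664) was left out. The step from day 2 to day 3 was 0.04 ± 0.15 (limma adjusted p = 0.889), with a 95% interval from -0.28 to 0.36.

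Bmf, another BH3-only gene, codes for a protein held at the cytoskeleton through dynein light chain until it is released. Its probe ILMN_2497190 read 7.94, 7.84 and 7.68 at day 0, 8.45, 8.23 and 8.03 at day 1, 9.20, 9.09 and 8.84 at day 2 and 9.04, 8.82 and 8.77 at day 3. The 3 day 1 arrays already lay above day 0 and below day 2, but the difference of 0.42 ± 0.14 at day 1 was not called (limma adjusted p = 0.353). Bmf had risen by 1.22 ± 0.14 at day 2 (2.34-fold, limma adjusted p = 0.000114) and by 1.06 ± 0.14 at day 3 (2.08-fold, adjusted p = 0.00011). The step from day 1 to day 2 was called at 0.81 ± 0.14 (limma adjusted p = 0.00441), and the step from day 2 to day 3 was -0.17 ± 0.14 (adjusted p = 0.484). With no background correction the day 3 rises of Bik and Bmf were smaller, at 0.73 and 0.70, and were still called (limma adjusted p = 1.28e-05 and 3.85e-05).

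The lower background set holds 1 array of day 2 and 1 of day 3, and the higher set holds 1 of day 0 and 1 of day 1. Comparisons of these days within a set thus have 1 array on 1 side, so only sizes are given. Within the lower set Bmf and Bik differed from day 0 by 1.15 and 1.29 at day 3, and by 1.31 and 1.44 at day 2. Within the higher set the differences were 1.12 and 1.02 at day 3, and 1.29 and 0.88 at day 2. The steps of Bmf and Bik from day 1 to day 2 were called in neither set.

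Bcl2l11 codes for BIM, a BH3-only protein that binds every survival member and can activate the effectors. Its brightest probe ILMN_3157568 read 9.90, 9.81 and 9.82 at day 0, 9.82, 9.82 and 9.86 at day 1, 10.17, 9.95 and 9.98 at day 2 and 10.79, 10.61 and 10.21 at day 3. Days 0 and 1 were hardly separate, and day 3 replicate 3 was the lowest of its day but still above every earlier array. Bcl2l11 had risen by 0.69 ± 0.14 at day 3 (1.62-fold, limma adjusted p = 0.00186), after 0.19 ± 0.14 at day 2 (adjusted p = 0.362). The step from day 2 to day 3 was 0.50 ± 0.14 (limma adjusted p = 0.0343), and was no longer called when day 1 replicate 1, day 2 replicate 2 or 3, or day 3 replicate 1 or 2 was left out (adjusted p = 0.0507 to 0.122).

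Bad codes for a BH3-only protein that binds BCL2 and BCL-XL and is kept inactive by phosphorylation. Against day 0 Bad was called at day 3 alone. Its probe ILMN_1216802 read 9.33, 9.47 and 9.43 at day 0, 9.65, 9.56 and 9.72 at day 1, 9.47, 9.72 and 9.45 at day 2 and 10.09, 10.15 and 9.93 at day 3. The day 3 arrays were above all others, while days 1 and 2 overlapped with each other. Bad had risen by 0.65 ± 0.12 at day 3 (1.57-fold, limma adjusted p = 0.000784), and the step from day 2 was 0.51 ± 0.12 (adjusted p = 0.0141). Without day 2 replicate 3 or day 3 replicate 2 that step gave limma adjusted p = 0.0634 and 0.0548.

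Bid codes for a BH3-only protein that caspase-8 cuts, which joins the death receptors to the mitochondrion. Its probe ILMN_3161878 read 10.59, 10.73 and 10.64 at day 0, 10.82, 10.72 and 10.69 at day 1, 10.64, 10.78 and 10.63 at day 2 and 11.03, 11.00 and 10.98 at day 3. The first 3 days overlapped, and the day 3 arrays lay above them within a narrow band. Bid had risen by 0.35 ± 0.10 at day 3 (1.27-fold, limma adjusted p = 0.0147), the smallest of the called rises. The call was lost under 8 of the 32 alternatives. Among them were scaling to the 75th percentile, which gave 0.22 (limma adjusted p = 0.151), and no scaling between arrays, which gave 0.19 (adjusted p = 0.739). Another was the fit with only days 0 and 3 (limma adjusted p = 0.0696). The step from day 2 to day 3 was 0.32 ± 0.10 and was not called (limma adjusted p = 0.053), but it was with the replicate number as a block (adjusted p = 0.0367).

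Within the lower background set the day 3 differences were 0.93 for Bcl2l11, 0.69 for Bad and 0.37 for Bid. Within the higher set they were 0.59, 0.62 and 0.35, and none was called. All 3 genes had the same sign in both sets, but the lower set holds 1 array of day 3 and the higher set 1 of day 0.

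The calls for the steps between days differed among the BH3-only genes, but a difference in timing was not tested. From day 1 to day 2, 2 of the 9 members rose (Bmf and Bik) and 0 fell, where 7.3% of all genes tested rose. From day 2 to day 3, 2 others rose (Bad and Bcl2l11) and 0 fell, where 5.7% of all genes rose. Over the 32 alternatives these step calls were lost in 3 for Bmf, 9 for Bik, 9 for Bad and 12 for Bcl2l11. The median day 3 difference of the 5 listed BH3-only genes was 0.69. All 5 were called as risers, where 21.4% of all genes tested rose. Bbc3 and Pmaip1, BH3-only genes outside the list, were not risers. Bbc3 was not called (0.08, limma adjusted p = 0.762). Pmaip1 was called as lower (-0.66, adjusted p = 0.0257), with day 3 arrays that overlapped with day 0.

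**Figure D2:**
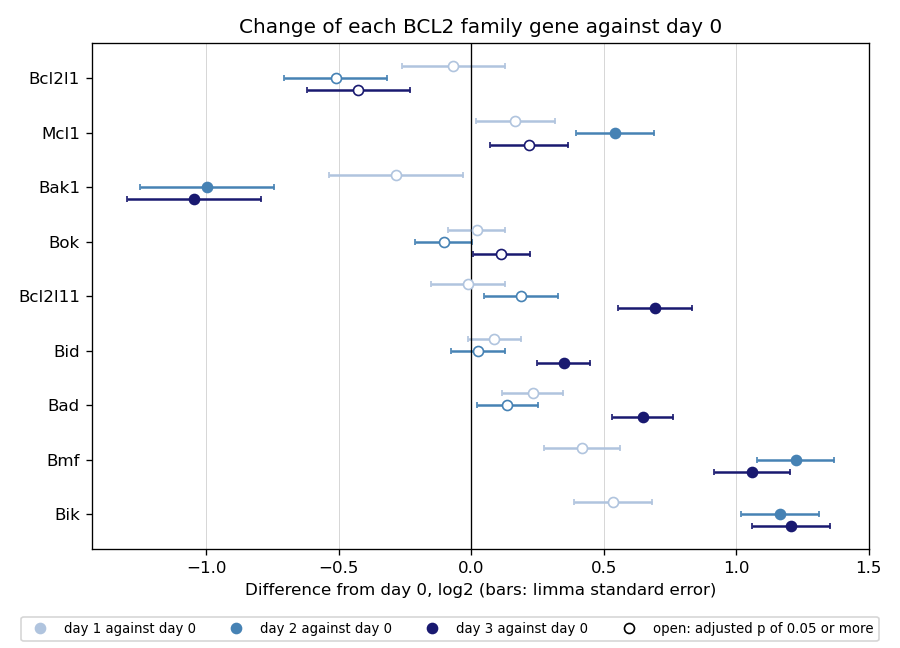
Log2 difference from day 0 (horizontal axis) of each tested gene (vertical axis) at days 1, 2 and 3, from light to dark, with bars of 1 limma standard error; filled points have an adjusted p under 0.05. Bmf and Bik reach 1.22 and 1.17 at day 2, Bcl2l11, Bad and Bid are filled at day 3 alone, and Bak1 is near -1 on both days.

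Of the effectors, BAK1 is the pore former that sits in the outer membrane and is kept shut by MCL1 and BCL-XL. Its probe ILMN_2945835 read 8.24, 7.43 and 7.00 at day 0, 7.11, 7.55 and 7.15 at day 1, 6.69, 6.42 and 6.56 at day 2 and 6.44, 6.76 and 6.33 at day 3. Day 0 was widely spread, with replicate 1 the highest value of the course, and the arrays of days 2 and 3 all lay below those of days 0 and 1. Bak1 had fallen by 1.00 ± 0.25 at day 2 (2.00-fold, limma adjusted p = 0.0138) and by 1.05 ± 0.25 at day 3 (2.06-fold, adjusted p = 0.00579). The low values are close to the dimmest signal detected on these arrays, 5.89 to 6.37, and without background correction the differences were -0.47 at day 2 and -0.49 at day 3, still called.

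The fall of Bak1 leaned on few arrays. Without day 0 replicate 1 it was -0.66 at day 2, still called (limma adjusted p = 0.0379), and without day 2 replicate 2 it was -0.93 and not called (adjusted p = 0.0535). Without replicate 1 on every day it was -0.67 at day 3 (limma adjusted p = 0.0694). It was -1.39 at day 3 within the lower background set and -0.45 within the higher set, each with 1 array on 1 side.

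BOK, a relative of BAK1 and BAX that survival members do not restrain, was read by probes that disagreed. The brighter probe of Bok, ILMN_2772077, read 9.69, 9.67 and 9.71 at day 0, 9.68, 9.66 and 9.79 at day 1, 9.76, 9.53 and 9.47 at day 2 and 9.85, 9.78 and 9.78 at day 3. These 12 values ranged from 9.47 to 9.85, with the day 3 arrays just above day 0, and Bok was called neither at day 2 (-0.10 ± 0.11, limma adjusted p = 0.530) nor at day 3 (0.11 ± 0.11, limma adjusted p = 0.432, 95% interval -0.12 to 0.35). The dimmer probe ILMN_1237404 read 7.12, 7.26 and 6.80 at day 0, 6.27, 6.27 and 6.30 at day 2 and 6.74, 6.84 and 6.26 at day 3. In the fit over probes it had fallen by 0.78 ± 0.17 at day 2 (limma adjusted p = 0.00797) and was at -0.45 ± 0.17 at day 3 (adjusted p = 0.0588). With the mean of its detected probes in place of the brighter, Bok was called as lower at day 2 (-0.44, limma adjusted p = 0.0176).

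Among the survival genes, MCL1 is a short-lived protein that restrains BAK1 and BIM. The Mcl1 probe ILMN_1216732 read 12.34, 12.14 and 12.46 at day 0, 12.39, 12.48 and 12.58 at day 1, 12.69, 12.83 and 13.05 at day 2 and 12.32, 12.48 and 12.80 at day 3. The day 2 arrays lay above all arrays of days 0 and 1, and day 3 overlapped with every other day. Mcl1 had risen by 0.54 ± 0.15 at day 2 (1.46-fold, limma adjusted p = 0.0196) and was 0.22 ± 0.15 higher at day 3 without being called (adjusted p = 0.264). The day 2 call ended without day 0 replicate 2 (limma adjusted p = 0.0789) or day 2 replicate 3 (0.0840), and with scaling to the 75th percentile, where the difference was 0.30 (adjusted p = 0.126).

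That scaling also changed the split of the day 2 calls, from 3 up and 1 down to 2 up and 2 down, with Bcl2l1 called in place of Mcl1. Without background correction, and in the authors' deposited normalized table, it was 3 up and 2 down, with Bcl2l1 added. Without any scaling between arrays it was 2 up and 0 down.

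Bcl2l1 codes for BCL-XL, the survival protein that restrains BAK1, BAX and BH3-only members. Its brightest probe ILMN_2698430 read 9.18, 9.13 and 8.55 at day 0, 8.95, 8.92 and 8.78 at day 1, 8.38, 8.51 and 8.43 at day 2 and 8.76, 8.09 and 8.73 at day 3. Day 0 replicate 3 stood below the other arrays of its day and overlapped with day 3, while all day 2 arrays were below day 0. The differences of -0.51 ± 0.19 at day 2 and -0.43 ± 0.19 at day 3 were not called (limma adjusted p = 0.0777 and 0.10). Without day 0 replicate 3 they were -0.71 and -0.63 and both called (limma adjusted p = 0.0170 and 0.0183).

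The dimmer probes of Bcl2l1 gave larger differences. ILMN_2647885 read 7.31, 7.05 and 7.07 at day 0, 6.50, 5.89 and 6.52 at day 2 and 6.59, 6.75 and 6.06 at day 3. Every later value lay below day 0, and the falls of 0.84 ± 0.20 and 0.68 ± 0.20 were called in the fit over probes (limma adjusted p = 0.0129 and 0.0198). ILMN_2742557 read 7.12, 7.03 and 6.22 at day 0 and 6.02, 5.06 and 6.03 at day 3, a difference of -1.09 ± 0.28 that was called (limma adjusted p = 0.00903). The 5.06, on day 3 replicate 2, was not detected and lies under the lowest signal detected on that array, 6.37, so the size of that difference rests in part on an undetected value. With the mean of its detected probes in place of the brightest, Bcl2l1 was called at day 2 (-0.73, limma adjusted p = 0.00888) and day 3 (-0.73, adjusted p = 0.00436).

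Bcl2, the founding survival gene, gave no level that could be followed. Its 9 probes were detected in 1 of 108 probe and array pairs, ILMN_2597272 on day 3 replicate 2, and read 4.48 to 6.55 with a median detection p of 0.473. The other probes not tested, 1 each of Bcl2l1, Bcl2l11 and Bid, were detected on 0 arrays. That is too seldom to follow Bcl2 over the days, and it does not show that Bcl2 was absent.

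**Figure D3:**
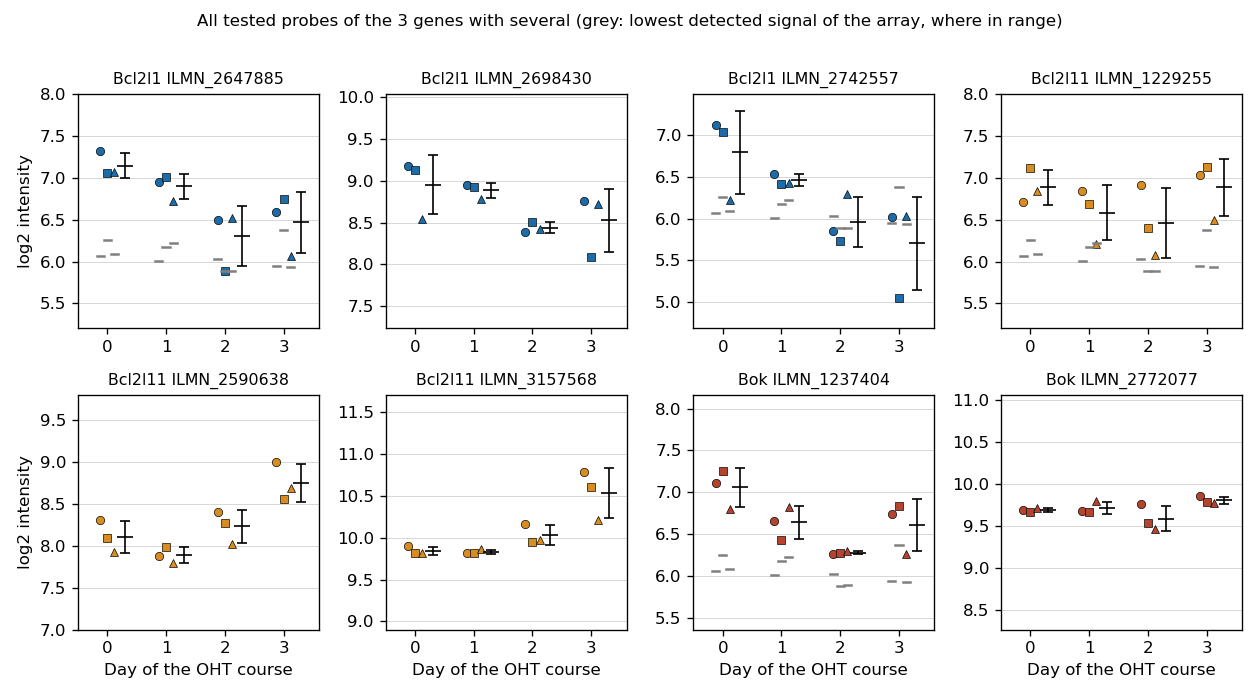
Log2 intensity (vertical axis) by day (horizontal axis) of each tested probe of Bcl2l1, Bcl2l11 and Bok, with 1 point per array, the mean and SD beside them, and grey marks at the lowest signal detected on each array. The dimmer Bok probe drops to 6.27 to 6.30 at day 2 while the brighter stays at 9.47 to 9.76, and all Bcl2l1 probes have lower means at day 3 than at day 0.

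The fit over all 14940 probes with 1 symbol called 6 of the 14 member probes at day 2 (3 up, 3 down) and 9 at day 3 (6 up, 3 down), where 19.1% and 36.8% of all probes were called. For Bcl2l11 the second probe ILMN_2590638 read 8.31, 8.09 and 7.93 at day 0 and 9.00, 8.55 and 8.69 at day 3, a rise of 0.64 ± 0.15 (limma adjusted p = 0.00619). The dimmest, ILMN_1229255, read 6.71, 7.11 and 6.84 at day 0 and 7.03, 7.13 and 6.50 at day 3, and was not called (difference -0.0023 ± 0.24, limma adjusted p = 0.995). Which transcripts each probe reads is not given in the sources used here.

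With limma's F test across the 4 days, 6 of the 9 members were called, Bad, Bak1, Bcl2l11, Bid, Bik and Bmf, where 37.6% of all genes tested were. The day 2 arrays did not overlap with day 0 for 6 of 9 members (38.9% of all genes), and the day 3 arrays for 7 of 9 (45.3% of all genes). The survival genes Bcl2l1 and Mcl1 were in neither the F test's calls nor the calls of day 3.

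The balance of survival and death members was described by the mean log2 difference from day 0 of the 2 survival genes tested, minus that of the 7 death genes tested (effectors and BH3-only genes). It carries no test, since the genes were listed with results of these data known. On the day 1 arrays it was -0.12, -0.10 and -0.06, on day 2 -0.42, -0.20 and -0.04, and on day 3 -0.59, -0.84 and -0.18. The day 0 arrays themselves ranged from -0.06 to 0.08, and day 2 replicate 3 lay within that range. All 9 later arrays were below the day 0 mean, and day 3 spread most, at -0.54 ± 0.33 (SD, n = 3). Day 2 had a mean of -0.22 ± 0.19 (SD, n = 3), and its range overlapped with those of days 1 and 3.

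The mean of the 5 listed BH3-only genes, without Bbc3 and Pmaip1, was 0.25 ± 0.06 above day 0 at day 1. It was 0.55 ± 0.10 at day 2 and 0.79 ± 0.11 at day 3 (SD, n = 3), and the ranges of the 3 days did not overlap. The survival genes were at 0.05 ± 0.01, 0.02 ± 0.10 and -0.10 ± 0.24 (SD, n = 3), with day 3 replicate 2 lowest at -0.35. That mean joins 2 genes of opposite sign, so their differences partly cancel. Bcl2l1 was at -0.51 at day 2 and -0.43 at day 3, and Mcl1 at 0.54 and 0.22. Of these only the day 2 rise of Mcl1 was called. Bcl2l1 entered by its brightest probe, while its dimmer tested probes were at -0.68 and -1.09 at day 3. Of the death genes, Bak1 went the other way from the BH3-only genes, so that the mean over all 7 was 0.43 ± 0.10 at day 3.

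**Figure D4:**
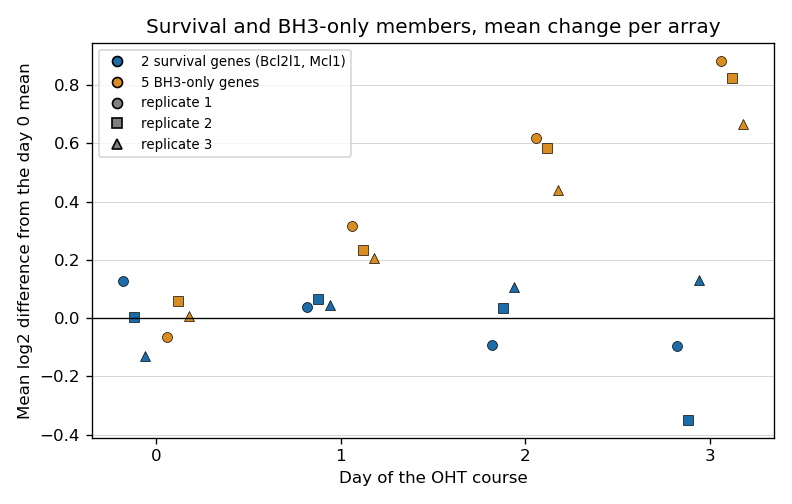
Mean log2 difference from the day 0 mean (vertical axis) of the 2 survival genes and the 5 listed BH3-only genes on each array, by day (horizontal axis), with shapes for replicate numbers. The BH3-only means are highest at day 3, between 0.67 and 0.88, while the survival means stay between -0.35 and 0.13. The survival mean joins Bcl2l1, lower than at day 0 on days 2 and 3, and Mcl1, higher on both.

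Other genes of the pathway were taken from lists of family relatives and partners. Among 8 other family genes tested, 1 rose and 2 fell at day 3, where 21.4% and 17.8% of all genes did. Bcl2l2, which codes for the survival protein BCL-W, fell by 0.42 ± 0.12 (limma adjusted p = 0.0130), a call lost in 2 of the 12 fits that left out 1 array. Pmaip1, which codes for NOXA, a BH3-only inhibitor of MCL1, fell by 0.66 (limma adjusted p = 0.0257), but its day 3 arrays overlapped with day 0. The riser was Bcl2l10, detected on 0 arrays at day 0 and on 1 at day 3, so no fold is given. Bbc3, the gene of the BH3-only protein PUMA, was not called (0.08, limma adjusted p = 0.762), and Bax was not analysed here.

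Downstream of the pore, 3 of the 8 genes tested for the apoptosome and caspases rose and 1 fell at day 3. The shares over all genes tested were 21.4% and 17.8%. The initiator Casp9 rose by 0.93 ± 0.12 (limma adjusted p = 6.15e-05) and the executioner Casp6 by 1.13 ± 0.17 (adjusted p = 0.000275). Casp2, the gene of another initiator caspase, fell by 0.58 ± 0.11 (limma adjusted p = 0.00154). Casp9 and Casp6 were already called at day 2, at 0.72 and 0.92 (limma adjusted p = 0.00101 and 0.00253). The third riser was Cycs, the gene of cytochrome c, at 0.53 ± 0.16 (limma adjusted p = 0.0175), whose day 3 arrays overlapped with day 0 and which was not called at day 2 (0.28, adjusted p = 0.227).

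Of 5 inhibitors of apoptosis and their antagonists, 2 rose and 1 fell at day 3, where 21.4% and 17.8% of all genes did. Diablo, whose product SMAC frees caspases from their inhibitors, rose by 0.53 ± 0.12 (limma adjusted p = 0.00384), and Birc2, the gene of the inhibitor cIAP1, fell by 0.87 ± 0.15 (adjusted p = 0.000657). Birc5, the gene of survivin, which also serves in mitosis, rose by 0.39 ± 0.11 (limma adjusted p = 0.0141). That call was lost in 2 of the 12 fits that left out 1 array.

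The death receptor arm, which meets the family through Bid, had 5 genes tested, of which 3 rose and 1 fell at day 3. Among all genes tested, 21.4% rose and 17.8% fell. Fas, a death receptor, rose by 1.28 ± 0.16 at day 3 (limma adjusted p = 7.11e-05), after 1.59 at day 2, and was detected on 2 of the 3 day 0 arrays. The adaptor Tradd rose by 1.24 ± 0.18 (limma adjusted p = 0.000161). Tnfrsf10b, the gene of the receptor for TRAIL, rose by 0.87 ± 0.32 (limma adjusted p = 0.0472), a call lost in 8 of the 12 fits without 1 array, and Tnfrsf21, the gene of death receptor 6, fell by 0.57 ± 0.16 (adjusted p = 0.0127), lost in 1.

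Of 11 genes listed as partners of the family, 3 rose and 1 fell at day 3, where 21.4% and 17.8% of all genes did. Tmbim6, the gene of BAX inhibitor 1, rose by 0.81 ± 0.14 (limma adjusted p = 0.000700), and Hspa9, a mitochondrial chaperone, fell by 0.56 ± 0.13 (adjusted p = 0.00393). Dynll1, the gene of a dynein light chain, rose by 0.31 ± 0.10 (limma adjusted p = 0.0317), a call lost in 4 of the 12 fits without 1 array. Dynll2, also a dynein light chain gene, was not called (-0.05, limma adjusted p = 0.884). The third riser, Vdac2, rose by 0.52 ± 0.18 (limma adjusted p = 0.0390), with day 3 arrays that overlapped with day 0. Of 15 regulators of family genes or proteins, 1 rose and 6 fell, beside the same 21.4% and 17.8% of all genes. Usp9x, which codes for a deubiquitinase that stabilises MCL1, was called as lower (-1.37 ± 0.22, limma adjusted p = 0.000382), but it was detected on 1 of the 3 day 3 arrays and on 3 at day 0, so the size rests mostly on undetected values. Trib3, a pseudokinase gene of the stress response, fell by 1.07 ± 0.12 (limma adjusted p = 1.88e-05), and the transcription factor gene Myc, detected on 0 arrays at day 3, was at least 1.27-fold lower (adjusted p = 0.00339). E2f1, a transcription factor gene of the cell cycle, rose by 0.34 ± 0.11 (limma adjusted p = 0.0278), a call lost in 4 of the 12 fits.

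The genes whose log2 intensity followed Bik most closely over the 12 arrays were Sct (Pearson r = 0.988), Psmb9 (0.982) and Flot1 (0.982). For Bmf they were Mlf1 (0.977), Mtres1 (0.972) and Lgr6 (0.968). The 12 arrays come from 4 days, so the points of a day are not independent of each other, and the values are a description with no test. Sct codes for the hormone secretin, Psmb9 for a subunit of the immunoproteasome, Flot1 for the membrane protein flotillin and Lgr6 for a receptor of R-spondins.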

How the data were processed

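Expression was read on 12 Illumina arrays. The deposited non-normalized table gives, for each of 45281 probes, an intensity on a linear scale with no background subtraction or scaling seen in the values, and a detection p-value in steps of 1 in 936, which the authors deposited beside it. GenomeStudio was used, per the submitters' processing notes, with version and settings not given in the sources used here. A second deposited table of normalized intensity served as an alternative, and 0 sample columns were left unused.

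Intensities were corrected and quantile normalized with neqc (offset 16) of limma 3.58.1 in R 4.3.3. The 17337 probes with a detection p under 0.01 on 3 or more of the 12 arrays were kept. The platform annotation named 34885 probes with 1 symbol and 18 with several, left 10378 without, and 34807 of the probes with 1 symbol matched RefSeq by gene ID with 0 symbols updated. Each gene was represented by its brightest detected probe, which left 9934 genes, and a second fit used all 14940 detected probes with 1 symbol. Limma's lmFit and eBayes with 1 mean per day gave two-sided tests, adjusted by Benjamini-Hochberg. The code was tested on simulated data. Figures were drawn with matplotlib 3.10.9 in Python 3.11.15.

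The members, lists and tests were chosen with earlier results of these data known. Named are all members and probes, and of each other list up to 3 called risers and 3 fallers at day 3 whose arrays did not overlap with day 0. Pmaip1, Bbc3, Cycs, Vdac2, Dynll2 and the family genes not analysed were added after their values were seen. So were the markers Thy1, Col1a2, Col3a1, Amn, Sox7, Elavl3, Map2, Nes, Stmn2, Cdx2, Eomes, Elf5, Hand1, Tfap2c and Krt8. Replicate numbers are shared by the 4 days. Deviations from the group means of same-numbered arrays correlated at 0.20, 0.26 and 0.44 for day 1 and 0.26, 0.28 and 0.42 for day 3 against day 0, all over 0.1. For day 2 against day 0 they correlated at 0.04, -0.03 and 0.25. Same-numbered arrays thus deviated together in the first comparisons and not clearly in the last. Replicate 1 was in the lower background set and replicate 3 in the higher on every day, so pairing and background cannot be told apart. A block for the replicate number was an alternative. Precision is limited by having 3 arrays a day. Other normalizations, background settings, filters, probe rules and left-out arrays were tried. Proteins were not analysed here.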

Additional observations from a re-analysis of the deposited data

How the results depend on the processing

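The 45 member differences kept their side of the threshold in 1352 of 1440 values under 32 alternatives, while 64 were no longer called and 24 became called. Most of the 45 were not called in the reported fit, where the calls were 0 at day 1, 4 at day 2, 6 at day 3 and 2 for each step. The 64 losses fall on those calls alone. No background correction and the authors' deposited normalized table gave nearly the same member values, so these alternatives are hardly separate. Of the values called in the reported fit or in the alternative, 0 changed sign, and 50 of those called in neither did. The background sets were chosen after seeing the data. Without scaling between arrays, the median of all genes shifted to 0.27 at day 2 and -0.09 at day 3 against day 0, 0.29 for day 2 against day 1 and -0.36 for day 3 against day 2; relative to it Bmf was 1.28 and Bik 1.23 higher at day 2. Called members were then 2 at day 2, 3 at day 3, 1 from day 1 to 2, 0 from day 2 to 3, 2 by the F test, and 2 and 3 probes at days 2 and 3. With no filter, 1 member was called from day 2 to 3. With only the compared days in the fit, 4 were called from day 1 to 2 and 0 from day 2 to 3. The lower background set gave 2 at day 2, 0 for both steps, 3 by F, and 2 and 5 probes at days 2 and 3; the higher gave 0 at day 2, 2 at day 3, 0 for both steps and by F, and 0 probes on either day. The balance was -0.14 at day 1 and -0.45 at day 2 in the lower set, -0.00419 at day 1 in the higher set, and -0.0421 at day 1 without background correction or in the authors' deposited normalized table. The cause was not tested, except that each background set holds only 6 arrays. Of these the lower set has 1 of day 2 and 1 of day 3, and the higher set 1 of day 0 and 1 of day 1.

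Leaving out arrays gave 2 to 5 called genes at day 2, 4 to 7 at day 3, 0 to 3 from day 1 to 2, 0 to 3 from day 2 to 3, 2 to 7 by F, 2 to 8 probes at day 2 and 5 to 11 at day 3, and balances of -0.14 to -0.041, -0.34 to -0.079 and -0.74 to -0.39 at days 1, 2 and 3. With the replicate number as a block (replicate block), 4 members were called at day 2 and 6 at day 3, with no call changed on any day against day 0, and Mcl1 was added from day 1 to 2 (limma adjusted p = 0.0381) and Bid from day 2 to 3. No slide is named in the headers, so that block was not run. Dim probes (Bak1, the lesser Bok and Bcl2l1 probes, Bcl2) lie near the lowest signal detected, which limits their size of change.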
